A study of Mus musculus with 6 samples.

Results

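RNA levels outside the immunoglobulin genes were compared between 3′RR-deficient and wt splenic B-cells, in resting cells and after stimulation with lipopolysaccharide (LPS), an endotoxin of Gram-negative bacteria to which B-cells respond with growth and antibody secretion. All gene names except 92 spike-in RNAs and 394 names beginning with Igh, Igk or Igl were kept, which left 46569 of the 47055 names in the count table. Of these, 13921 had at least 10 counts in at least 2 of the 4 libraries compared and were tested, and every other name was left out of the tests for low counts. The question was which genes differed the same way at rest and after LPS stimulation, once the dependence of the ratios on GC content was taken into account.

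The 4 libraries were resting wt, resting 3′RR-deficient, LPS-stimulated wt and LPS-stimulated 3′RR-deficient B-cells, with 1 library for each genotype and state. LPS was given at 5 μg per ml for 2 days. The resting cells are labelled as cultured for the same time without LPS, whereas the methods describe them as unstimulated cells. Each library was a pool of 2 mice, and the mice were 8 to 12 weeks old, male and female according to the methods. The 3′RR-deficient mice carried a germline deletion of the 3′ regulatory region (3′RR) of the IgH locus in a 129 background. The wt mice were 129 mice from a commercial supplier, so that a difference between the colonies cannot be told apart from the deletion. The methods describe cells of the same mice before and after stimulation, so the resting and LPS-stimulated libraries of a genotype need not be independent. B-cells were obtained by depleting spleen cells of CD43+ cells, a step that leaves resting B-cells and other CD43-negative cells. The series also holds 2 libraries of Eμ-deficient B-cells, a deletion of the other IgH enhancer in the same background, and their levels are given beside some genes below. Both mutants were compared with the same wt libraries, so the mutants' differences from wt share the error of those libraries.

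The 3′RR is a cluster of enhancers downstream of the IgH constant genes. It drives transcription of these genes in mature B-cells, and with it class switch recombination, the exchange of the constant gene that changes the antibody class. Its known targets lie on the same chromosome as the enhancers.

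The deleted region has no entry in the count table, so the labels were checked on Ighg3, the constant gene of IgG3, which depends on the 3′RR. It had 807 counts in resting and 1285 in LPS-stimulated wt cells, against 2 and 0 counts in 3′RR-deficient cells. The edgeR log2 fold change was −9.44 with an SE of 0.74 (adjusted p = 5.20e-33). Genes received 16094475 counts in the resting wt, 20780706 in the resting 3′RR-deficient, 21998587 in the LPS-stimulated wt and 9111974 in the fourth library, LPS-stimulated 3′RR-deficient. The last library was thus the shallowest, and 3 counts in it equalled 0.343 CPM, the count per 1000000 counts of the library after TMM scaling, against 0.142 to 0.162 CPM in the others. The 12 B-cell markers were present in every library, and summed to 4310 and 4710 CPM in resting and 2940 and 2840 CPM in LPS-stimulated wt and 3′RR-deficient cells.

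Over both states, 132 genes (0.948%) differed between the genotypes by edgeR's quasi-likelihood test with the culture state as a block, at an adjusted p below 0.05. Of the genes tested, 51 (0.366%) were higher and 81 (0.582%) were lower in 3′RR-deficient B-cells. The 51 had log2 fold changes of at least 1.74 and a median of 3.12, and the 81 had log2 fold changes at or beyond −1.73 with a median of −4.24. Of the higher genes 50, and of the lower genes 75, had a ratio of the same sign in both states. The fit takes 1 genotype effect over both states, so its calls favour genes of equal sign. Of all genes tested, 20.8% lay above 0 and 20.7% below 0 in both states. Across these genes, Spearman's rho between the ratios at rest and after LPS was −0.116. Without regard to a test, 155 genes (1.11%) were more than 2-fold higher and 147 (1.06%) more than 2-fold lower in both states. Over all genes tested the median log2 ratio was 0.0038 at rest and −0.0023 after LPS. TMM scaling places the bulk of genes near 0, so this median cannot show whether levels in general were shifted. The residual of this fit has 1 degree of freedom, the departure from an equal ratio in both states, so that its p-values do not measure the spread between mice. In bulk RNA, fewer cells of a type and less RNA per cell cannot be told apart.

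**Figure D1:**
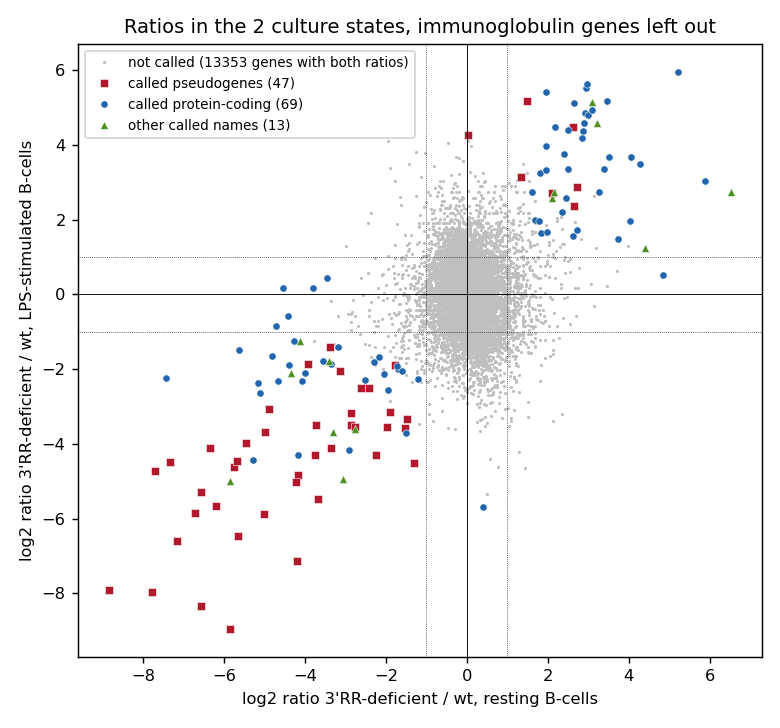
Log2 ratio of 3′RR-deficient to wt CPM in resting (horizontal axis) and LPS-stimulated B-cells (vertical axis), 1 point per gene with a ratio in both states; dotted lines mark 2-fold. The called genes lie mostly in the upper right and lower left corners, and most of the points furthest to the lower left are pseudogenes.

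The LPS-stimulated 3′RR-deficient library departed from its wt partner with GC content, and the resting one hardly did. From the lowest to the highest of 10 equal bins of transcript GC content, the median log2 ratio went from −0.93 to 0.72 after LPS and from 0.15 to −0.08 at rest. Spearman's rho between ratio and GC content was 0.614 over 13299 genes after LPS and −0.176 over 13655 genes at rest, given as a description since the genes share their libraries. Spike-in RNAs, added in fixed proportions to each sample, also spread more widely between the LPS libraries than between the resting ones. There were 36 of them with at least 100 counts in each library. The SD of their log2 ratio of 3′RR-deficient to wt was 1.27 after LPS and 0.16 at rest. Their relation to GC content was not tested. In LPS-stimulated cells alone, 1439 genes (10.3%) were more than 2-fold higher and 1633 (11.7%) more than 2-fold lower, against 625 (4.49%) and 413 (2.97%) at rest.

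Requiring the same direction at rest and after LPS left few of these genes. After the trend on GC content was removed in each state, 141 genes (1.01%) were more than 2-fold higher and 142 (1.02%) more than 2-fold lower in both states. Counting only genes past 2-fold both before and after its removal, 118 (0.848%) were higher and 123 (0.884%) lower. For the genes called by edgeR, the median GC content was 49.1% for the 51 higher and 49.9% for the 81 lower ones. It was 49.1% for all genes tested. These medians do not show that the fit was free of the trend. Without correction, Spearman's rho between the edgeR log2 fold change and GC content was 0.478 over 13693 genes. The lowest GC bin, from 25.0% to 40.7%, held 14 of the higher and 6 of the lower calls. The highest bin held 6 of each. With GC content corrected in the fit itself, edgeR called 46 genes higher and 75 lower, of which 42 and 68 were also called without it.

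**Figure D2:**
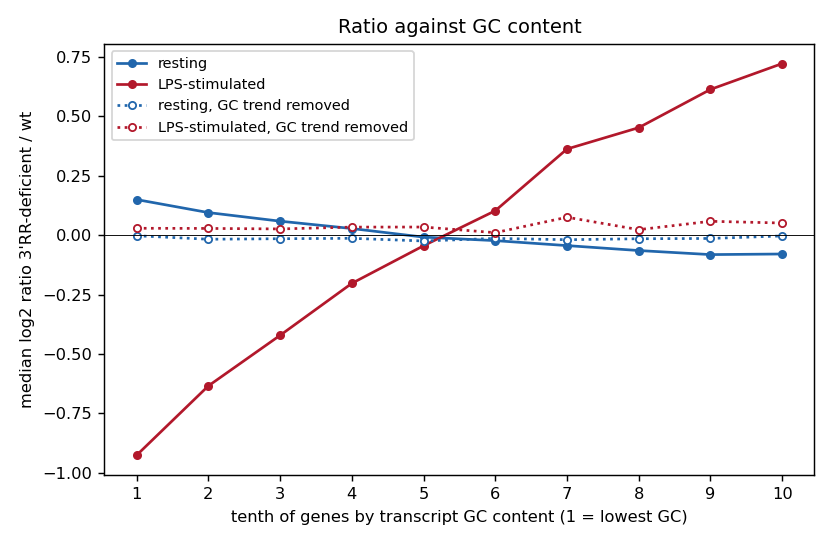
Median log2 ratio of 3′RR-deficient to wt CPM (vertical axis) in 10 bins of the genes tested, of equal size, by transcript GC content (horizontal axis), in resting and LPS-stimulated B-cells, before (filled) and after (open) removal of the trend. The LPS line climbs from −0.93 to 0.72, the resting line falls slightly from 0.15 to −0.08, and both lie near 0 after removal.

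Among genes with a given symbol, the 12 largest rises held genes that were close to undetected in wt B-cells. Htatip2, an oxidoreductase-like protein described as a tumour suppressor, had 0.108 CPM in resting and 0.102 CPM in LPS-stimulated wt cells, 2 counts in each library. In 3′RR-deficient cells it had 6.07 and 9.50 CPM, and in Eμ-deficient cells 6.06 and 8.25 CPM. Its log2 fold change was 6.10 with an SE of 0.78 (edgeR adjusted p = 2.46e-12), and the 95% interval of the count ratio, which covers counting error only, was 3.93 to 8.87 on the log2 scale at rest and 4.64 to 9.61 after LPS. BC147527 had 0 counts in both wt libraries, 57 and 17 in 3′RR-deficient and 17 and 52 in Eμ-deficient cells. Against a floor of 3 counts per library, its log2 ratio was at least 4.06 at rest and 3.67 after LPS (edgeR adjusted p = 5.91e-07). For both genes wt stood alone, with the Eμ-deficient libraries on the side of the 3′RR-deficient ones.

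Other large rises were found in 3′RR-deficient cells and not in Eμ-deficient cells at a like level. Map3k19, a protein kinase, had 2 and 1 counts in wt, 204 and 11 in 3′RR-deficient and 4 and 2 in Eμ-deficient cells, at rest and after LPS. Its log2 fold change was 5.81 with an SE of 0.90 (edgeR adjusted p = 3.45e-08), and most of its RNA was in the resting library. The same held for Meg3, an imprinted long noncoding RNA expressed from the maternal allele, at 0.162 and 15.1 CPM in resting wt and 3′RR-deficient cells and at 0.307 and 2.06 CPM after LPS. Its log2 fold change was 4.66 (edgeR adjusted p = 5.09e-08). Rbpms, an RNA-binding protein, went from 0.217 to 4.22 CPM at rest and from 0.0511 to 1.72 CPM after LPS, with a log2 fold change of 4.45 (edgeR adjusted p = 5.30e-05). Differences between the mutants themselves were not tested.

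Oasl2, an interferon-induced protein of the oligoadenylate synthetase family, had 0.650 and 5.02 CPM in resting and 0.102 and 6.98 CPM in LPS-stimulated wt and 3′RR-deficient cells (log2 fold change 4.09, edgeR adjusted p = 1.01e-06). Eμ-deficient cells had 2.05 CPM at rest and 25.1 CPM after LPS. Reln, the extracellular matrix glycoprotein reelin, rose by 3.12, Camk2b, a calcium-dependent kinase, by 2.99, Gdf15, a stress-induced cytokine, by 3.76 and Arpp21, a phosphoprotein regulated by cAMP, by 3.50 on the log2 scale. Dkk3, a secreted glycoprotein of the dickkopf family, rose by 3.10 at an edgeR adjusted p of 0.0484. The last 5 were scarce, with at most 5.36 CPM in any of the 4 libraries. At rest, Eμ-deficient cells had 11.9 CPM of Reln, against 1.19 in wt and 5.36 in 3′RR-deficient cells, and 2.58 CPM of Gdf15, against 0.217 and 2.47. After LPS they had 1.125 CPM of Reln and 0 of Gdf15. They had at most 0.758 CPM of Camk2b, Arpp21 and Dkk3 in either state. In the fit with all 6 libraries, 4 of the 12 genes, BC147527, Hspa1a, Htatip2 and Map3k19, stayed called, and the other 8 had adjusted p between 0.0514 and 0.337. Leaving out the resting or the LPS-stimulated 3′RR-deficient library left 4 of the 12 called each time, in part because genes no longer passed the count filter, and leaving out either wt library left 9. DESeq2 called 7 of the 12, without Arpp21, BC147527, Camk2b, Dkk3 and Gdf15. With GC content corrected in the edgeR fit, Arpp21 and Dkk3 had adjusted p of 0.209 and 0.16.

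The heat shock proteins of the Hsp70 class contributed the most abundant gene of the 12. Hspa1a, the inducible Hsp70 chaperone, had 159 counts in resting wt and 1899 in resting 3′RR-deficient cells, and 5 and 23 after LPS. Its log2 fold change was 3.37 with an SE of 0.53 (edgeR adjusted p = 5.12e-08). Its neighbour and near-identical copy Hspa1b, on chromosome 17 like Hspa1a, had 202 and 3079 counts at rest and 17 and 21 after LPS (log2 fold change 2.88, edgeR adjusted p = 1.36e-05). Reads of the 2 genes cannot be well separated, and resting Eμ-deficient cells had 312 and 356 counts of them. Of the 9 heat shock genes tested these were the 2 called, and the other 7 were not, among them Dnajb1, an Hsp40 cochaperone, at 37.1 and 58.6 CPM at rest. The medians of the list were 0.28 at rest and 0.30 after LPS. Without the resting 3′RR-deficient library, neither was called, Hspa1a at an edgeR adjusted p of 0.0642 and Hspa1b at 0.478, and with all 6 libraries Hspa1b had 0.0541.

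**Figure D3:**
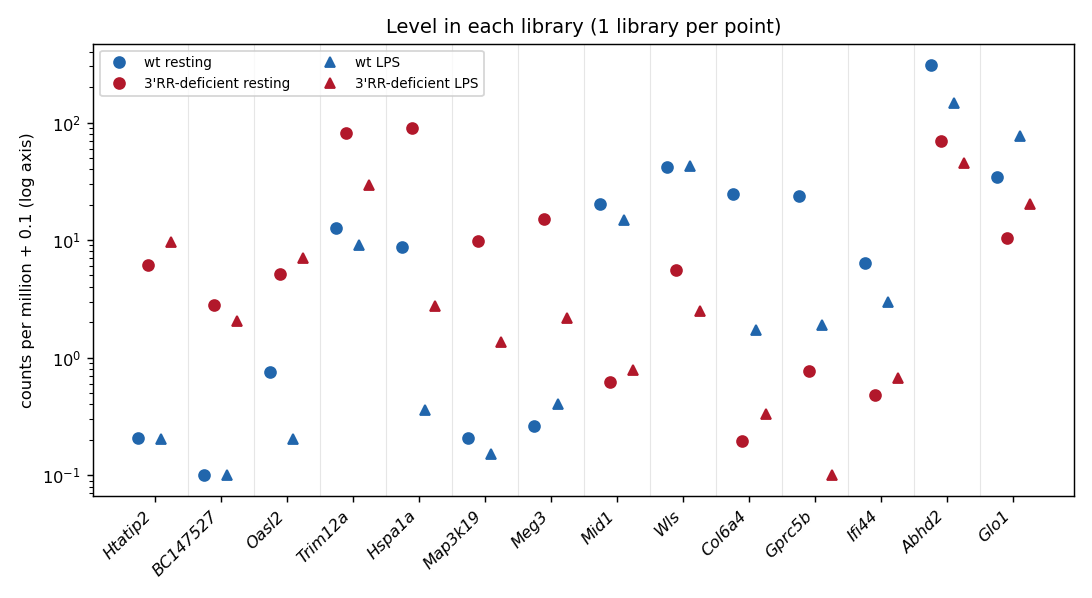
CPM plus 0.1 on a log axis of 14 called genes in the 4 libraries, 1 point per library (circles resting, triangles LPS, blue wt, red 3′RR-deficient). In the 7 genes to the left both red points lie above their blue partners, and in the 7 to the right both lie below.

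A block of 4 neighbouring genes of the tripartite motif family on chromosome 7 (GRCm38, chr7:104244457-104507849) rose together. These genes were picked after their values were seen. Trim5, Trim12a and Trim30d belong to groups of related genes that include restriction factors against retroviruses. Trim12a had 12.5 and 81.9 CPM in resting and 8.94 and 29.5 CPM in LPS-stimulated wt and 3′RR-deficient cells, with a log2 fold change of 2.22 and an SE of 0.45 (edgeR adjusted p = 0.000133). Eμ-deficient cells had 0.152 and 0.281 CPM, below wt. Trim5, Trim30d and Trim34a had log2 fold changes of 2.10, 2.28 and 1.74. Summed over the 4 genes, which are alike in sequence and may exchange reads, the level was 41.1 and 207 CPM at rest and 37.9 and 129 CPM after LPS in wt and 3′RR-deficient cells. It was 18.0 and 25.4 CPM in Eμ-deficient cells, so the 3 genotypes stood in the same order in both states. The fit without the resting 3′RR-deficient library called none of the 4, at adjusted p from 0.121 to 0.583, and the fit with all 6 libraries called 2, Trim12a and Trim34a.

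AT-rich names at the start of the assembled sequence of chromosome 9 and a pair on chromosome 2, again picked after their values were seen, rose and reached high levels after LPS. The 9 names between positions 3000282 and 3038316 of chromosome 9 had log2 fold changes from 3.66 to 4.55 and transcript GC contents from 34.9% to 36.2%. Together they had 18.9 and 154 CPM in resting and 307 and 10200 CPM in LPS-stimulated wt and 3′RR-deficient cells. Eμ-deficient cells had 87.4 and 6650 CPM. Gm26870, for example, had 10.2 and 86.6 CPM at rest and 193 and 6791 CPM after LPS (edgeR adjusted p = 1.01e-06). These neighbours may share reads, since fragments that mapped to several places were counted. Their rise went against the direction of the GC trend, in which AT-rich genes were lower after LPS in 3′RR-deficient than in wt cells. Gm10800 and Gm10801 on chromosome 2 had 45.7 and 339 CPM at rest and 609 and 14900 CPM after LPS, against 140 and 12400 CPM in Eμ-deficient cells. With all 6 libraries, Gm10800 had an edgeR adjusted p of 0.0541.

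Of the 12 largest falls among genes with a given symbol, the first was Col6a4, a chain of collagen VI. It had 24.4 and 1.64 CPM in resting and LPS-stimulated wt cells, 0.0948 and 0.229 CPM in 3′RR-deficient cells, where each library held 2 counts, and 0 counts in Eμ-deficient cells. The log2 fold change was −6.47 with an SE of 0.86 (edgeR adjusted p = 2.88e-11), and the 95% interval of the count ratio was −11.1 to −6.15 at rest and −5.94 to −0.87 after LPS. Gprc5b, an orphan G protein-coupled receptor, had 23.8 and 0.664 CPM in resting wt and 3′RR-deficient cells, and after LPS 35 counts in wt and 0 in 3′RR-deficient cells (log2 fold change −5.28, edgeR adjusted p = 4.02e-10). In Eμ-deficient cells Gprc5b was at 15.8 and 3.10 CPM. Msi1, an RNA-binding protein of stem cells, had 55 and 25 counts in wt, 2 and 0 in 3′RR-deficient and 0 and 0 in Eμ-deficient cells. Cpne4, a calcium-dependent membrane-binding protein, and Itln1, a lectin of the intestine, had log2 fold changes of −4.02 and −4.72 from low levels. Their calls were lost with GC content corrected in the edgeR fit, at adjusted p of 0.074 and 0.139, and with DESeq2, at 0.105 and 0.702. Of the 12 genes, 8 stayed called with all 6 libraries, while Cpne4, Ifi44l, Itln1 and Msi1 had adjusted p from 0.066 to 0.237. Without the resting 3′RR-deficient library, Gprc5b, Mid1 and Mir692-2 alone stayed called, and the other 9 had adjusted p from 0.173 to 0.70. Without the resting wt library 7 stayed called, without the LPS-stimulated wt library 8, and without that of LPS-stimulated 3′RR-deficient cells all 12.

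A pair of neighbouring interferon-induced genes on chromosome 3, Ifi44 and Ifi44l, fell. Ifi44 had 6.33 and 0.379 CPM in resting and 2.86 and 0.572 CPM in LPS-stimulated wt and 3′RR-deficient cells, a log2 fold change of −3.29 with an SE of 0.72 (edgeR adjusted p = 0.000556). Ifi44l had 74 and 1 counts at rest and 21 and 0 after LPS (edgeR adjusted p = 1.92e-05). Eμ-deficient cells held both, with Ifi44 at 5.68 CPM at rest and 36.0 CPM after LPS. With GC content corrected in the fit, Ifi44 had an adjusted p of 0.0667, and with all 6 libraries 0.309. Leaving out the resting wt, the resting 3′RR-deficient or the LPS-stimulated 3′RR-deficient library gave it adjusted p of 0.134, 0.262 and 0.18. Of the 27 interferon-stimulated genes tested, Oasl2 was the 1 called higher and Ifi44 the 1 called lower, and the medians of the list were −0.39 at rest and 0.57 after LPS. These 2 genes thus moved in opposite directions within a list whose other members did not pass the test.

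Mid1, a microtubule-associated ubiquitin ligase on the X chromosome, fell in each state. It had 20.3 and 0.521 CPM in resting and 14.8 and 0.687 CPM in LPS-stimulated wt and 3′RR-deficient cells, with a log2 fold change of −4.90 and an SE of 0.60 (edgeR adjusted p = 2.50e-13). Eμ-deficient cells had 2.20 and 3.66 CPM. Gm21857 and Gm21742, close copies of Mid1 on the Y chromosome that may share its reads, had 417 and 83 counts in resting wt cells and 5 and 0 in resting 3′RR-deficient cells. Summed over the 3, the log2 ratio was −5.96 at rest and −5.35 after LPS. Levels of 4 Y-linked genes served as a check of the mix of male and female mice. They summed to 203 and 216 CPM at rest and to 261 and 110 CPM after LPS in wt and 3′RR-deficient cells, and their median log2 ratio after LPS was −1.29, or −0.19 with the GC trend removed. Xist, the RNA of the inactive X chromosome, had 0 and 48 counts at rest and 3 in each LPS library, too few for the test.

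Digestive enzymes of the pancreas made up 4 of the 12 largest falls. Amy2a3, a pancreatic amylase, had 69.8 and 4.36 CPM in resting and 1.48 and 0.115 CPM in LPS-stimulated wt and 3′RR-deficient cells, with a log2 fold change of −3.95 and an SE of 0.60 (edgeR adjusted p = 1.68e-08). Its copy Amy2a5, the lipase Pnlip and the carboxypeptidase Cpb1 fell by 3.85, 4.75 and 4.05 on the log2 scale. A list of 30 pancreatic enzyme genes, drawn up after these values were seen, had 10 members past the count filter. Of these, 9 were called lower, among them Cel, the bile salt-stimulated lipase, and Ctrb1, chymotrypsinogen, so their choice after the fact adds no support. Over the 30 names the libraries held 5250 counts in resting wt, 325 in resting 3′RR-deficient and 864 in resting Eμ-deficient cells, and 152, 37 and 19 after LPS. The median log2 ratio was −4.13 at rest over the 10 tested and −0.21 after LPS over the 8 of them that had a ratio there. Whether pancreatic RNA in the resting wt preparation had a part in these falls was not tested. With the resting wt library left out, Cpb1 and Amy2a5 had edgeR adjusted p of 0.0892 and 0.071, and Cel and Ctrb1 of 0.207 and 0.159. With the resting 3′RR-deficient library left out, Cel and Ctrb1 had 0.717 and 0.81.

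Several genes that B-cells express at higher levels were lower in both states, here picked after their values were seen. Wls, the carrier of Wnt proteins to the cell surface, had 770 and 116 counts in resting and 839 and 21 in LPS-stimulated wt and 3′RR-deficient cells, against 1229 and 756 in Eμ-deficient cells. Its log2 fold change was −3.48 with an SE of 0.48 (edgeR adjusted p = 2.3e-10). Ctse, the aspartic protease cathepsin E, went from 91.7 to 23.9 CPM at rest and from 34.0 to 5.72 CPM after LPS, with Eμ-deficient cells at 91.4 and 33.9 CPM. For both genes the 3′RR-deficient libraries stood apart from the other genotypes. Emb, the cell adhesion protein embigin, went from 41.4 to 10.1 CPM at rest and from 48.6 to 11.1 CPM after LPS (log2 fold change −2.08, edgeR adjusted p = 0.000387).

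Glo1, the glyoxalase that detoxifies methylglyoxal, and its neighbour Dnah8, an axonemal dynein heavy chain, lie together on chromosome 17 (GRCm38, chr17:30584936-30877365). Glo1 had 34.0 and 10.3 CPM at rest and 76.1 and 20.2 CPM after LPS in wt and 3′RR-deficient cells, with Eμ-deficient cells at 43.9 and 55.9 CPM. Dnah8 had 88.0 and 15.5 CPM at rest and 21.5 and 4.35 CPM after LPS, with Eμ-deficient cells at 39.6 and 12.4 CPM, between the others. The log2 fold changes were −1.82 (edgeR adjusted p = 0.00412) and −2.41 (edgeR adjusted p = 2.65e-05). Abhd2, a serine hydrolase, was the most abundant of these genes, at 311 and 69.0 CPM at rest and 146 and 45.5 CPM after LPS (log2 fold change −1.93, edgeR adjusted p = 0.0104). Eμ-deficient cells had 68.3 and 50.6 CPM of Abhd2, at the level of 3′RR-deficient cells. Without the LPS-stimulated 3′RR-deficient library, Abhd2, Glo1 and Ctse had adjusted p of 0.111, 0.0849 and 0.0601, and without the resting one Abhd2, Glo1 and Emb had 0.171, 0.143 and 0.0867.

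Pseudogenes held more of the falls than protein-coding genes did. Of 650 pseudogenes tested, 40 (6.15%) were lower and 7 (1.08%) higher, whereas of 11447 protein-coding genes 34 (0.297%) were lower and 38 (0.332%) higher. The 40 lower pseudogenes held 24492 counts in resting wt and 1165 in resting 3′RR-deficient cells, and 51835 and 924 after LPS. Processed pseudogenes are copies of a gene's mRNA inserted elsewhere in the genome, and a short read from one place can map to another. By sequence, 39 of the 40 were copies, at 95.3% to 100% identity over at least 90% of their length, of a protein-coding gene that was also tested, and 462 of 639 pseudogenes compared were such copies. Of the 39, 20 were copies of genes for ribosomal proteins. The share of such copies among the 462 was not counted, so the 20 cannot be read as an excess. The coding gene was not called for 31 of the 39, was called higher for 5 and called lower for 3.

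In the families of Ftl1 and Rpl29 the coding gene rose while the copies most abundant in wt fell. These copies were picked after their values were seen. Ftl1 encodes the light chain of ferritin, the iron storage protein, and lies on chromosome 7 (GRCm38, chr7:45457944-45459884, minus strand). Ftl2-ps (chr4:125504288-125504839, plus strand) and Gm15590 (chr17:6131854-6132405, minus strand) are processed copies. Over the 549 aligned coding bases, Ftl2-ps differed from Ftl1 at 7 and Gm15590 at 5. Reads of 150 bases drawn from these sequences can carry few bases that tell the copies apart.

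Ftl1 itself had 1776 and 7882 counts in resting and 587 and 4067 in LPS-stimulated wt and 3′RR-deficient cells, a log2 fold change of 2.95 with an SE of 0.57 (edgeR adjusted p = 3.05e-05). Ftl2-ps had 1197 and 1 counts at rest and 1615 and 0 after LPS, and Gm15590 had 3309 and 18 at rest and 1970 and 33 after LPS. The copies fell in the states in which the coding gene rose. Summed over Ftl1 and its 4 close copies, the log2 ratio was −0.16 at rest and 0.58 after LPS, against 1.96 and 3.96 for Ftl1 alone. Ftl1 took 22.8% of the family's counts in resting wt cells (exact binomial 95% interval 21.9% to 23.7%) and 98.9% in resting 3′RR-deficient cells (98.6% to 99.1%). After LPS it took 9.45% (8.74% to 10.2%) and 98.1% (97.7% to 98.5%). In Eμ-deficient cells its share was 98.3% at rest and 97.9% after LPS, so here too the wt libraries stood alone.

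Mir692-2, the only small RNA among the 12 largest falls, lies in the same place. The annotated hairpin (GRCm38, chr4:125504749-125504857) shares 91 of its 109 bases with Ftl2-ps. Its mature product in RefSeq (GRCm38.p6, chr4:125504805-125504825, plus strand) lies wholly within the pseudogene and is identical to a stretch of Ftl1, with 0 differences. It is printed with the seed, bases 2 to 8, in capitals.
miR-692: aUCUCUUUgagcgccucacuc
Mir692-2 had 657 and 13 counts at rest and 1363 and 19 after LPS in wt and 3′RR-deficient cells, and 14 and 5 in Eμ-deficient cells (log2 fold change −5.40 with an SE of 0.54, edgeR adjusted p = 1.93e-20). Its counts therefore followed those of Ftl2-ps, and fragments of the longer transcript cannot be told apart from those of the hairpin in these counts.

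Rpl29, a protein of the large ribosomal subunit, lies on chromosome 9 (GRCm38, chr9:106429454-106431568, plus strand), and its copies Gm13841 (chr5:115801677-115802159, minus strand) and Gm8210 (chr1:43189156-43189638, plus strand) each differ from it at 3 of 480 aligned coding bases. The first 100 coding bases are printed to show that both copies carry 1 difference there, C72A, in capitals.
Rpl29: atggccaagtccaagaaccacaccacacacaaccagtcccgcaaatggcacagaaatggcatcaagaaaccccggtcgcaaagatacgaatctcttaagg
Gm13841: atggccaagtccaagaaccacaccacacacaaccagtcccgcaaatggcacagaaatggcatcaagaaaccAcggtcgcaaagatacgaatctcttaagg
Gm8210: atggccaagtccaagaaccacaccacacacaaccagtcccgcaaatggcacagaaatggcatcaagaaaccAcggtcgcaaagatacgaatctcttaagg
Rpl29 had 56.3 and 195 CPM in resting and 95.8 and 374 CPM in LPS-stimulated wt and 3′RR-deficient cells (log2 fold change 1.88, edgeR adjusted p = 0.0188). Gm13841 had 1742 and 9 counts at rest and 5080 and 9 after LPS, and Gm8210 had 376 and 1 at rest and 646 and 1 after LPS. Other copies rose with the coding gene: Gm5561 had 21 and 148 counts at rest and 38 and 376 after LPS (log2 fold change 3.61, edgeR adjusted p = 2.55e-09), and Gm17669 had 11 and 35 at rest and 6 and 97 after LPS (3.29, adjusted p = 0.00041). Over the family of 7 names, the summed log2 ratio was 0.19 at rest and 0.13 after LPS. Rpl29 took 31.0% of the family's counts (29.5% to 32.6%) in resting wt and 94.5% (93.8% to 95.2%) in resting 3′RR-deficient cells. In Eμ-deficient cells the share was 94.7% at rest and 93.9% after LPS. The call of Rpl29 was lost without the LPS-stimulated 3′RR-deficient library, at an edgeR adjusted p of 0.0872, and without the resting one, at 0.11.

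**Figure D4:**
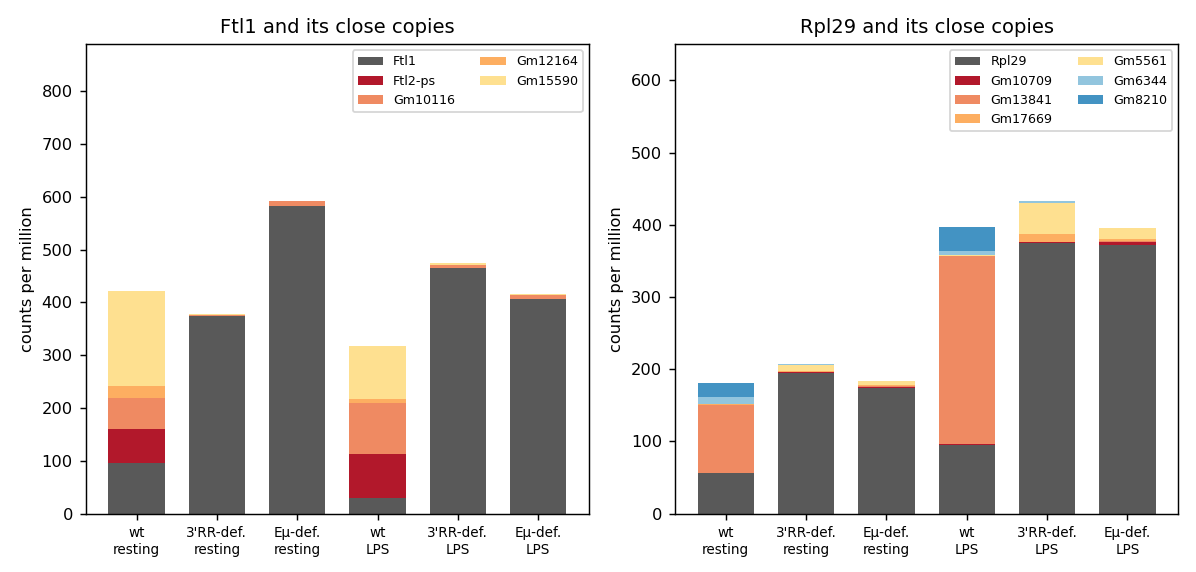
CPM (vertical axis) of Ftl1 (left) and Rpl29 (right) stacked with their close copies in the 6 libraries. In wt the coloured copies take most of each bar and in both mutants the grey coding gene does, as the shares of 22.8% and 98.9% for Ftl1 at rest give, while the bar heights differ far less than the segments.

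Called pseudogenes fell into 27 such families. The summed ratio passed 2-fold in the same direction in both states in 2 of them, those of Mid1 and Glo1. Over the 27 families the median summed log2 ratio was 0.19 at rest and −0.34 after LPS. When the counts of close copies were added to their gene before the fit, edgeR called 42 genes higher and 38 lower, all of which were also called without summing, and Ftl1 and Rpl29 had adjusted p of 1. Another pattern was seen for Rpl34-ps1, a copy of the ribosomal protein gene Rpl34. It had 245 and 4.27 CPM at rest and 794 and 1.60 CPM after LPS in wt and 3′RR-deficient cells, a log2 fold change of −7.23 (edgeR adjusted p = 6.7e-22). Eμ-deficient cells had 372 and 544 CPM of it, on the side of wt, unlike the copies of Ftl1 and Rpl29 that fell. Rps15a-ps6 and Rps13-ps1 were also on that side, at 136 and 166.5 CPM and at 142 and 220 CPM in Eμ-deficient cells. The 40 lower pseudogenes summed to 1330, 55.2 and 1030 CPM at rest in wt, 3′RR-deficient and Eμ-deficient cells. After LPS the sums were 2650, 106 and 1520 CPM. How many of the 40 lay on each side was not counted. Rpl34 itself was not called, with log2 ratios of 1.54 at rest and −0.31 after LPS.

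Lists of B-cell identity, class switch recombination, LPS sensing, B-cell receptor signalling and MHC class II genes gave no call. Over all 13921 genes tested 0.948% were called, so lists of 4 to 24 genes could easily hold none. At an unadjusted p below 0.05 by edgeR, 269 of the 13921 were higher and 256 lower. Among the lists of B-cell (12 tested), follicular (8), marginal zone (10), transitional (4), B1 (7) and plasma cell (11) genes, edgeR called 0, DESeq2 called 0, and 1 B1 gene had an unadjusted p below 0.05. The same was true of 20 genes of class switch recombination, with 0 called by either tool and 0 at an unadjusted p below 0.05, and median log2 ratios of 0.08 at rest and −0.13 after LPS. The 15 genes of LPS sensing had medians of 0.10 and 0.0022, with 0 called by either tool and 0 at an unadjusted p below 0.05. The 24 genes of B-cell receptor signalling had medians of −0.05 and 0.49, and 0.26 after LPS with the GC trend removed, with 0 called by either tool and 1 higher at an unadjusted p below 0.05. The 10 genes of antigen presentation by MHC class II had medians of −0.03 and 0.20, with 0 called and 0 at an unadjusted p below 0.05. Against these the median over all genes was near 0 in both states, where TMM scaling places it.

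The list of genes that flank the IgH locus on chromosome 12 covers both sides of it and the Adam6 genes among its variable genes. Of these, the genes downstream of the 3′RR are the closest to the deleted enhancers. Of 28 listed, 23 were tested and edgeR and DESeq2 called 0, with 2 higher and 1 lower at an unadjusted p below 0.05. Over all 13921 genes tested, 269 were higher and 256 lower at that threshold. Their median log2 ratio was 0.04 at rest and 0.59 after LPS, or 0.25 after LPS once the GC trend was removed. Downstream of the 3′RR, Tmem121, a membrane protein, had 31 and 97 counts at rest and 23 in each LPS library in wt and 3′RR-deficient cells. Crip2, a LIM domain protein, had 35 and 100 counts at rest and 8 and 18 after LPS, and its relative Crip1 had 109 and 258 CPM at rest and 76.3 and 104 CPM after LPS. Scaled to library size, all 3 were above wt in both states without passing the test, though with the GC trend removed the log2 ratio after LPS was 0.50 for Tmem121 (1.16 before), 1.64 for Crip2 and −0.0043 for Crip1 (0.45 before). They had edgeR adjusted p of 0.922 for Tmem121, 0.38 for Crip2 and 1 for Crip1. Eμ-deficient cells had 4.62, 5.23 and 178 CPM of them at rest, where wt had 1.68, 1.89 and 109, and 0.75, 0.75 and 130 CPM after LPS, where wt had 1.18, 0.409 and 76.3. Among the variable genes, Adam6b, an ADAM family gene, had 17 and 4 counts at rest and 18 and 2 after LPS (edgeR adjusted p = 0.844).

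Markers of other cell types were mostly uncalled, though the medians of several lists lay above 0. They were not all low. At rest the erythroid list, at 3320 and 3810 CPM in wt and 3′RR-deficient cells, came near the B-cell markers at 4310 and 4710 CPM. The 13 macrophage and monocyte genes summed to 247 and 310 CPM at rest and 21.5 and 37.4 CPM after LPS, with medians of 0.40 and 1.45. Of the 11 T-cell genes tested, 9 lay above 0 at rest and 3 after LPS, with medians of 0.65 and 1.55 over those with a ratio. The list of 12 summed to 37.9 and 46.2 CPM at rest and 7.31 and 17.3 CPM after LPS. For 7 erythroid genes the medians were 0.32 and 1.34, at list sums of 3320 and 3810 CPM at rest and 56.8 and 137 CPM after LPS. NK cell genes summed to 16.2 and 14.7 CPM at rest and to 0.562 and 1.03 CPM after LPS. In these lists edgeR and DESeq2 called 0, and 4 macrophage, 2 erythroid and 1 NK cell gene were higher at an unadjusted p below 0.05. Of all 13921 genes tested, 269 were higher at that threshold. The LPS medians rest on few counts and leave out genes with 3 counts or fewer in both libraries, which have no ratio. Left out in this way were the macrophage complement genes C1qa, C1qb and C1qc, at 0 in wt and at 3, 0 and 2 counts in 3′RR-deficient cells.

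Of the 10 neutrophil genes 4 were tested and 1 was called higher. S100a8, a calcium-binding protein of neutrophils, had 11 and 155 counts at rest and 1 in each LPS library (log2 fold change 3.26, edgeR adjusted p = 0.0225). Its partner S100a9 had 23 and 122 counts at rest. Ly6g, the defining marker, was at 0 in all 4 libraries. DESeq2 and the fit with all 6 libraries did not call S100a8, at adjusted p of 0.371 and 0.407. Without the resting 3′RR-deficient library its log2 fold change turned to −0.36, and without the resting or the LPS-stimulated wt library its adjusted p was 0.11 and 0.0663. Whether these cells had a part in the other differences at rest was not tested.

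**Figure D5:**
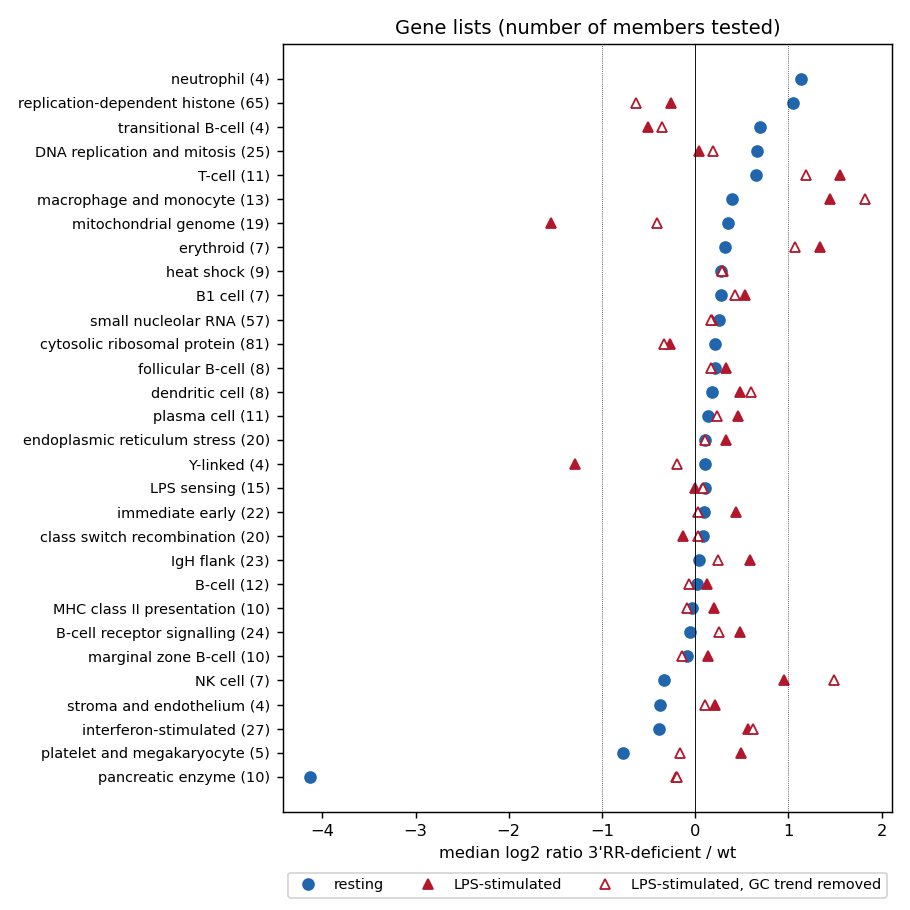
Median log2 ratio of 3′RR-deficient to wt CPM (horizontal axis) for each gene list with at least 3 members tested (number in brackets), at rest and after LPS with and without the GC trend. Each median is over the members with a ratio in that state. Most lists lie within 2-fold in both states, and the pancreatic enzymes stand at −4.13 at rest.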

How the data were processed

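The authors depleted ribosomal RNA, made stranded libraries, mapped 150 bp paired reads to mm10 with STAR 2.4.0a, and counted fragments per gene name with featureCounts (Subread 1.4.6-p1, Ensembl release 77, strand option 1). Primary alignments of multi-mapping reads were counted, so near-identical copies can exchange reads. The deposited values are raw counts, 1 library per genotype and state. Spike-ins were left out of library sizes. Biotypes, coordinates and GC content came from GENCODE M21 (GRCm38), and close copies from blastn 2.17.0.

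Counts of the 4 libraries were fitted with edgeR 4.0.16 (R 4.3.3; TMM, quasi-likelihood, culture state as block, Benjamini-Hochberg adjustment over the genes tested, immunoglobulin genes kept in the fit). The prior degrees of freedom came out infinite, so all genes shared 1 trended spread. Within a state there is no test. Log2 ratios of CPM take any library with 3 counts or fewer as 3, with no ratio where both have so few. They have exact conditional binomial 95% intervals from R, which cover counting error only. The intervals of the family shares came from SciPy 1.17.1. The median of a list is over its members with a ratio in that state. The GC trend was removed by lowess (span 0.3). Levels of Eμ-deficient cells are CPM scaled over all 6 libraries. The fit was tested on simulated counts.

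The members and lists were chosen with earlier results of these data known. Named were the 12 largest rises and falls by log2 fold change among called genes with a given symbol and the same sign in both states, called list members and further list members; other names are marked as picked after their values were seen. Alternatives were total-count and DESeq2 1.42.0 scaling, scaling without immunoglobulin genes, DESeq2's Wald test, filters of 1 and 50 counts, GC and length correction, all 6 libraries, and leaving out the LPS-stimulated 3′RR-deficient library. Leaving out each other library and summing close copies were added after the data were seen. Fits that leave out a library use the Eμ-deficient libraries and assume that a genotype with 1 library varies like the others. Some items are not reported here.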

Additional observations from a re-analysis of the deposited data

Results flagged for a closer look

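For the mitochondrial gene mt-Nd3, a subunit of respiratory complex I, the log2 ratio of 3′RR-deficient to wt CPM was 0.39 at rest and −5.69 after LPS, a difference of −6.08 between states of opposite sign. It had 98 and 147 counts at rest and 1616 and 14 after LPS in wt and 3′RR-deficient cells, and 246 and 169 in Eμ-deficient cells. This difference was not tested. With the GC trend removed its ratio after LPS was −4.24. The edgeR call of mt-Nd3 as lower (log2 fold change −2.38, adjusted p = 0.00787) was lost with GC content corrected (−1.67, adjusted p = 0.837), with all 6 libraries (−2.80, 0.826), with DESeq2 (adjusted p of 1), with close copies summed (−2.43, 0.316) and without either LPS-stimulated library. The 19 mitochondrial genes tested had medians of 0.36 at rest and −1.55 after LPS, the latter −0.41 with the GC trend removed.

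The 4 transitional B-cell genes tested had a median log2 ratio of 0.69 at rest and −0.50 after LPS, so that the medians differed by −1.19. This difference was also not tested, and edgeR called 0 of the 4, with 0 at an unadjusted p below 0.05 and 0 called by DESeq2.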

How the results depend on the processing

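Against 51 higher and 81 lower calls, scaling by the total count gave 47 and 82, DESeq2 size factors 53 and 79, scaling without immunoglobulin genes 51 and 81, length correction 52 and 79, DESeq2's Wald test 40 and 54, GC correction 46 and 75 and a filter of 1 count 65 and 96. A filter of 50 counts gave 33 and 45, and 65 higher and 65 lower genes past 2-fold in both states, with fewer genes tested. All 6 libraries gave 25 and 55, of which 24 and 50 were also called with 4, and 21 and 50 with GC correction added. Summing close copies gave 42 and 38. With the LPS-stimulated 3′RR-deficient library left out, 36 and 67 were called, without the resting 3′RR-deficient 37 and 50, without the LPS-stimulated wt 94 and 96, and without the resting wt 803 and 639; the cause was not tested. Htatip2, Gprc5b, Mid1, Mir692-2, Wls and Dnah8 kept their calls in every one of these fits that tested them, Gprc5b not passing the filter of 50 counts. The log2 fold change changed sign for mt-Nd3 (0.056 without the LPS-stimulated wt library), and without the resting 3′RR-deficient library for S100a8 (−0.36) and Rpl34 (−0.11; −0.53 with copies summed). Scaling by the total count moved the median ratio of all genes to −0.17 at rest and 0.10 after LPS. No paired analysis was possible because each group has 1 library. Depth limits ratios of scarce genes after LPS, where the 3′RR-deficient library was the shallowest.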

Other observations

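Genes of the cell cycle lay mostly above wt at rest without passing the test. The replication-dependent histone genes, which supply histones in S phase, summed to 3170 CPM in resting wt and 6470 CPM in resting 3′RR-deficient cells, and to 45000 and 37400 CPM after LPS. Of 65 tested, 62 lay above wt at rest and 23 after LPS, with median log2 ratios of 1.05 and −0.26, the latter −0.64 with the GC trend removed. The resting median was 0.87 with total-count scaling. EdgeR called 0 of the 65, 8 were higher at an unadjusted p below 0.05, and DESeq2 called 3 higher. Of all 13921 genes tested, 269 were higher at that unadjusted threshold. The 25 genes of DNA replication and mitosis summed to 419 and 574 CPM at rest, with 22 of 25 above wt and a median of 0.66, and to 4000 and 4250 CPM after LPS, with a median of 0.05. EdgeR and DESeq2 called 0 of them, and 0 had an unadjusted p below 0.05.

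Stress and structural lists gave the following values. Immediate early genes (22 tested) had medians of 0.09 at rest and 0.44 after LPS, the latter 0.03 with the GC trend removed, and genes of endoplasmic reticulum stress (20 tested) had 0.11 and 0.33. Among 81 genes of cytosolic ribosomal proteins, Rpl29 was the 1 called, and the medians were 0.22 and −0.27. The 57 small nucleolar RNAs tested had medians of 0.25 and 0.18. Dendritic cell genes (8 tested) had 0.19 and 0.49, stromal genes (4 tested) −0.38 and 0.21, and platelet genes (5 tested) −0.78 and 0.49. These medians are over the members with a ratio in that state.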
